A study of Homo sapiens with 83 samples.

Results

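To describe the genes that went from near silence to measurable RNA when N-MYC was activated, 60 gene entries were chosen by their measured SHEP levels out of the 60237 in the deposited table. Their mean TPM was below 1 in MYC-OFF and at least 1 in MYC-ON, and the mean of MYC-ON was above that of MYC-OFF in each of the 2 replicate series. TPM is an abundance divided by transcript length and scaled to the same total in every library. Of 514 entries that met these conditions, the 60 with the highest log2 ratio of MYC-ON to MYC-OFF (0.1 TPM added to each mean) are the members. The rule used the SHEP contrast, so all SHEP differences between MYC-ON and MYC-OFF below are a description of how the members were chosen, and no test is given for them.

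The data come from RNA sequencing of polyadenylated RNA in 83 libraries of the human neuroblastoma cell lines SHEP and SKNAS. All libraries carry N-MYC-ER, an N-MYC fused to a part of the estrogen receptor that is present throughout and becomes active when 4-hydroxytamoxifen (4OHT) is added. MYC-OFF cells received ethanol and dexamethasone, and MYC-ON cells received 4OHT and dexamethasone, which sets the circadian clocks of a culture to a common phase. RNA was taken every 4 h from circadian time (CT) 24, with 28 libraries per condition in SHEP (2 series to CT76), 14 in SKNAS MYC-OFF (to CT76) and 13 in SKNAS MYC-ON (to CT72). The libraries of a series are time points of 1 experiment, so p-values measure the spread between time points and, in SKNAS, rest on 1 series per condition. No group lacks N-MYC-ER, so an effect of 4OHT itself and an effect of N-MYC cannot be told apart.

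N-MYC is a transcription factor that is amplified in a subset of neuroblastomas. It binds DNA with its partner MAX, mostly at the E-box CACGTG, near the starts of very many genes. Most of its known targets in growth and biosynthesis are already expressed before it is raised, and genes that are off beforehand are a smaller and less described group. Neuroblastoma lines differ in state between an adrenergic type, marked by factors such as PHOX2A, and a mesenchymal type, marked by genes such as VIM and PRRX1.

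The SHEP libraries had mesenchymal markers in part. VIM was at 3469 ± 367 TPM (SD, n = 28) in MYC-OFF, while PRRX1, itself a member, was at 0.633 ± 0.499 TPM there against 67.7 ± 31.9 TPM in SKNAS MYC-OFF. In a list of 16 mesenchymal neuroblastoma genes 3 were below 1 TPM in SHEP MYC-OFF. PHOX2A was at no more than 0.0419 TPM in SHEP MYC-OFF and listed at 0 in all 28 MYC-ON libraries. SKNAS MYC-OFF held PHOX2A at 232 ± 34.7 TPM and VIM at 1431 ± 387 TPM (SD, n = 14). MYCN, which includes the N-MYC-ER transcript where its sequence is shared, was at 555 ± 70.8 TPM in SHEP MYC-OFF and 377 ± 69.5 TPM in MYC-ON (SD, n = 28 each). The cell's own MYC went from 11.3 ± 2.28 TPM to 2.56 ± 1.46 TPM on the same libraries. In SKNAS the library medians of log2(TPM + 1) ran from 2.76 to 4.38, and a median of at least 3.8 was reached by 10 of 14 libraries in MYC-OFF and by 3 of 13 in MYC-ON. In SHEP 6 libraries, those of MYC-ON series 2 from CT52 to CT72, were set apart by the summed TPM of the noncoding members. Their library medians of 3.93 to 4.11 overlapped the 3.94 to 4.12 of the other 22 MYC-ON libraries. The membership, the spread, the overlap, the courses over time and the comparison of the series are given with and without these 6.

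Of the 60 members, 32 were annotated as protein-coding, 20 as lncRNA and 8 as pseudogenes or other noncoding kinds. Among all entries with a MYC-ON mean of at least 1 TPM in SHEP, 84.2% were protein-coding and 10.3% lncRNA. The members lay on 20 chromosomes, with at most 7 on one of them. Their MYC-ON means ran from 1.09 to 28.5 TPM with a median of 2.56 TPM, against a median MYC-OFF mean of 0.233 TPM, and 13 members reached a MYC-ON mean of 5 TPM. These are low levels, so most members did not become abundant. They were not all silent before, since 20 were above 0 in all 28 MYC-OFF libraries. Only 35 stayed below 1 TPM in every MYC-OFF library.

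The start regions of 5 members are shown because each holds the canonical N-MYC motif and each member was separated between the SHEP conditions in every library. They were taken from RefSeq (GRCh38.p14), cover the 250 bases before the annotated start, run 5′ to 3′ on the gene's strand, and have CACGTG in capitals. They are FAM222A-AS1 (chr12:109773488-109773737, minus strand), CR2 (chr1:207454078-207454327, plus strand), IGSF9 (chr1:159945614-159945863, minus strand), LRP3 (chr19:33194080-33194329, plus strand) and CGREF1 (chr2:27119129-27119378, minus strand).
FAM222A-AS1: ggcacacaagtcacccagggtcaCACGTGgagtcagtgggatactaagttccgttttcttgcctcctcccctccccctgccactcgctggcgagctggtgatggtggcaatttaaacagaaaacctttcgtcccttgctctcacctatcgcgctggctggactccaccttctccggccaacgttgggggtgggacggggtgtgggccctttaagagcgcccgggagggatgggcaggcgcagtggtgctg
CR2: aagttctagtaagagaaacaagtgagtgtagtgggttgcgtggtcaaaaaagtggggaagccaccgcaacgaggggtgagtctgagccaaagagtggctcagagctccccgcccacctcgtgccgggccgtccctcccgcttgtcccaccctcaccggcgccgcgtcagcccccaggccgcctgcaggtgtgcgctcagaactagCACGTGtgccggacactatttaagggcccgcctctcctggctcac
IGSF9: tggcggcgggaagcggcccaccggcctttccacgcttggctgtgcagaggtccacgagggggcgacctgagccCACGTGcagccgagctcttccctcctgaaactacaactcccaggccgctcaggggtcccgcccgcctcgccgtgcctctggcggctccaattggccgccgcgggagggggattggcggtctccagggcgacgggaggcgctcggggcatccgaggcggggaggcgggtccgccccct
LRP3: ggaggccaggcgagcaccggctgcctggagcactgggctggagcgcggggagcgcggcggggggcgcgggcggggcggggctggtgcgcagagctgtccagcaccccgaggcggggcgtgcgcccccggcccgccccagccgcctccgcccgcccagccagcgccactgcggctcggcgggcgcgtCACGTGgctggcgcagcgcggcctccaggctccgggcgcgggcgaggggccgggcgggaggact
CGREF1: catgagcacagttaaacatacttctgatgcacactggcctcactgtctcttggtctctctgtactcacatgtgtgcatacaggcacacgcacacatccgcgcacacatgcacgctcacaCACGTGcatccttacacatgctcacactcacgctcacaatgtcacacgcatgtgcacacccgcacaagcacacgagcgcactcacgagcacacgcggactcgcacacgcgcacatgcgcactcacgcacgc
The motif began 227 bases before the start in FAM222A-AS1, 45 in CR2, 177 in IGSF9, 64 in LRP3 and 131 in CGREF1. RefSeq start regions were matched for 27 of the 60 members. In the full window, from 250 bases before to 50 after the start, 5 of these 27 (18.5%) held CACGTG, against 7.26% of all 35116 windows of that length. These are the 5 shown. CACGCG or its reverse CGCGTG, a related sequence, was in 5 of 27 member windows and in 11.4% of all windows. CACGTG reads alike on both strands and cannot overlap a CACGCG or CGCGTG. These counts are a description of letters and were not tested.

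The members were split by whether their SHEP conditions overlapped. In 31 members every one of the 28 MYC-ON libraries lay above every one of the 28 MYC-OFF libraries, and 23 of these 31 were protein-coding. The same separation held for 6.21% of the 14261 entries with a MYC-ON mean of at least 1 TPM, and since the rule used this contrast nothing is read from the comparison. The other 29 members overlapped between conditions, 20 of them noncoding. Overlap does not make a member intermittent, since it ignores the pairing by series and CT. In 42 members MYC-ON was above MYC-OFF in all 28 such pairs, and these include overlapping ones such as PRRX1 and TMEM52. This too follows from the contrast the rule used. Without the 6 late libraries 32 members were separated and 28 overlapped. As the plot of all members by library shows, the separated members formed even bands across the MYC-ON block, and the overlapping ones were often scattered points.

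**Figure D1:**
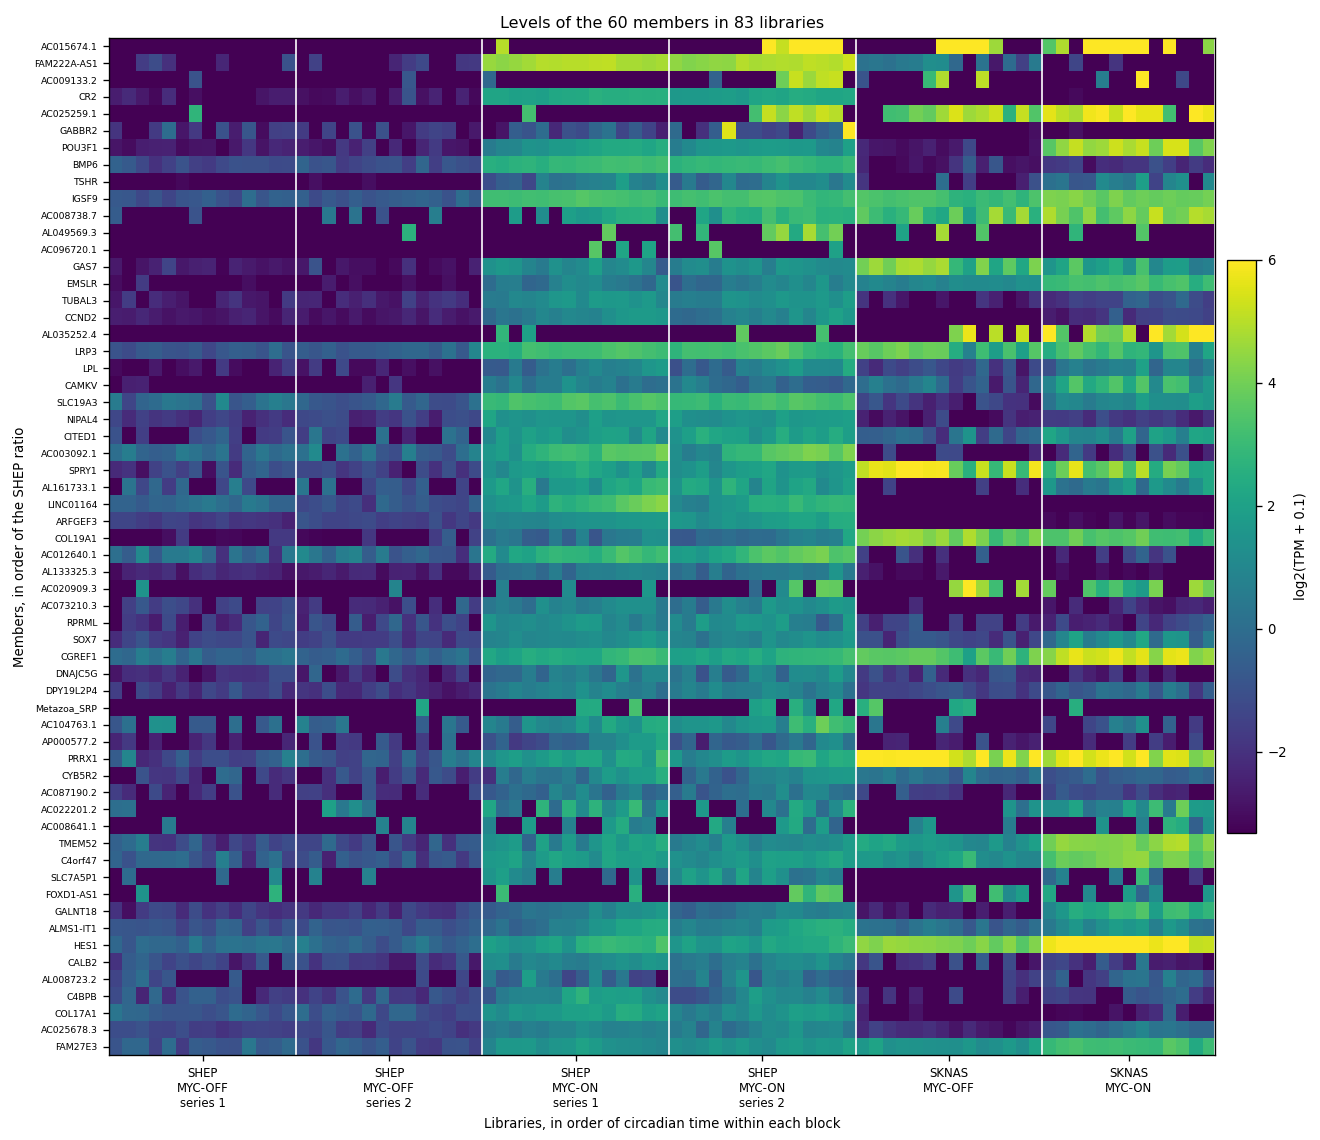
Levels of the 60 members (rows, in order of the SHEP ratio) in the 83 libraries (columns, in blocks of cell line, condition and series, by circadian time), as log2(TPM + 0.1) in colour. CR2 and IGSF9 are even across both SHEP MYC-ON blocks, while AC015674.1 and AC009133.2 are bright mainly in the late libraries of series 2 and in some SKNAS libraries of both conditions.

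The ligand, receptor and surface genes included several of the widest ratios. CR2, the complement receptor known from B cells (chr1:207453024-207489895), ran from 0 through a median of 0.0337 to 0.436 TPM in MYC-OFF and from 3.07 through 4.33 to 5.93 TPM in MYC-ON. BMP6, a secreted bone morphogenetic protein (chr6:7726099-7881728), ran from 0.153 through 0.366 to 0.748 TPM and then from 5.40 through 7.45 to 9.39 TPM. IGSF9, an adhesion protein of the immunoglobulin superfamily (chr1:159927039-159945613), ran from 0.288 through 0.514 to 0.915 TPM and from 6.94 through 9.13 to 11.6 TPM. All 3 were clear of overlap by a wide margin. TSHR, the receptor for thyroid-stimulating hormone (chr14:80954989-81146306), was listed at 0 in 25 of 28 MYC-OFF libraries with a highest value of 0.0295 TPM, and had a lowest, median and highest MYC-ON value of 0.291, 1.43 and 3.65 TPM. LRP3, a member of the low-density lipoprotein receptor family, went from a mean of 0.600 ± 0.291 TPM to 8.88 ± 2.05 TPM (SD, n = 28 each), and its highest MYC-OFF value of 1.85 TPM stayed below its lowest MYC-ON value of 5.45 TPM. GABBR2 and C4BPB, which encode a GABA-B receptor subunit and a chain of the C4b-binding protein, were the overlapping genes among these 7.

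Transcriptional regulators made up 5 members, and 4 of them did not overlap. POU3F1, a POU-domain factor of neural and Schwann cell lineages (chr1:38043829-38046793), had a lowest, median and highest value of 0, 0.0513 and 0.236 TPM in MYC-OFF and 1.37, 3.17 and 5.44 TPM in MYC-ON. HES1, a repressor induced by Notch signalling (chr3:194136148-194138732), had 0.353, 0.813 and 1.57 TPM and then 2.46, 4.18 and 10.8 TPM. CITED1, a coactivator that binds no DNA itself, had means of 0.289 ± 0.344 and 3.56 ± 1.02 TPM (SD, n = 28 each). SOX7, of the SOX family, had means of 0.256 ± 0.0956 and 2.17 ± 0.511 TPM on the same libraries. PRRX1, a homeobox factor of mesenchyme and the overlapping member of the group, had values from 0.106 to 1.84 TPM in MYC-OFF and from 1.44 to 9.59 TPM in MYC-ON.

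Among 7 members of the cell cycle and intracellular signalling, 6 did not overlap. CCND2, which encodes cyclin D2 (chr12:4269771-4305353), had a lowest, median and highest value of 0.0198, 0.0539 and 0.128 TPM in MYC-OFF and 0.786, 1.80 and 3.96 TPM in MYC-ON. A second protein-coding entry on the same strand over CCND2, ENSG00000285901, went from a mean of 1.05 TPM to 11.4 ± 2.45 TPM (SD, n = 28), so reads may be divided between them and the level of CCND2 alone is uncertain. SPRY1, an inhibitor of receptor tyrosine kinase signalling, had means of 0.280 ± 0.169 and 3.35 ± 0.955 TPM. CGREF1, a secreted growth regulator with EF-hand motifs, had means of 0.827 ± 0.289 and 5.80 ± 1.87 TPM, the highest MYC-ON mean of the 7. CAMKV, ARFGEF3, CALB2 and RPRML completed the group, with MYC-ON means from 1.17 to 2.98 TPM, and only RPRML overlapped.

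Enzymes and transporters numbered 5. SLC19A3, a thiamine transporter (chr2:227683763-227718028), had, with IGSF9, the highest MYC-ON mean among protein-coding members (9.30 ± 1.54 TPM against 9.28 ± 1.15 TPM), with a lowest, median and highest value of 6.04, 9.20 and 12.2 TPM against 0.283, 0.727 and 2.07 TPM in MYC-OFF. LPL, which encodes lipoprotein lipase, had means of 0.0525 ± 0.0841 and 1.68 ± 1.10 TPM (SD, n = 28 each). NIPAL4, a magnesium transporter, had means of 0.224 ± 0.105 and 3.002 ± 0.617 TPM. GALNT18, a glycosyltransferase, also did not overlap, while CYB5R2, a cytochrome b5 reductase, did. Matrix and cytoskeleton genes were COL17A1, COL19A1, GAS7 and TUBAL3, at MYC-ON means from 1.28 to 3.03 TPM, and of these only COL19A1 overlapped.

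The second-ranked member and the steadiest noncoding one was FAM222A-AS1, a lncRNA opposite FAM222A (chr12:109734166-109773508). It was listed at 0 in 17 of 28 MYC-OFF libraries, with a highest value of 0.411 TPM, and ran from 18.7 through 28.1 to 40.2 TPM in MYC-ON. Its coefficient of variation (CV, the SD as a percentage of the mean) over MYC-ON was 18.6%. FAM222A, on the other strand, was lower in MYC-ON, at 0.487 ± 0.281 TPM against 1.123 ± 0.240 TPM (SD, n = 28 each). The lncRNA was thus far above the gene it faces in MYC-ON.

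The spread over libraries differed within the set. A high spread makes overlap more likely, so the split by overlap partly fixes the difference below. Over the 28 MYC-ON libraries the median CV of the 31 separated members was 29.8%, with a range from 12.4% to 72.9%. For the 29 overlapping members it was 79.2%, with a range from 36.7% to 360%. The median over all entries with a MYC-ON mean of 1 to 10 TPM was 29.3%, so the separated members sat at the usual spread for their level. A CV over 100% was found in 11 members, and in 1.23% of all entries with a MYC-ON mean of at least 1 TPM. Over the 22 libraries left without the 6 late ones, the median CV of the same members was 31.7% and 83.6%, and a CV over 100% was found in 13 members and in 1.10% of entries. TPM keep no read depth, so how much of this spread is counting error was not tested. Length moved with it, since the median genomic span was 18575 bases in the separated members and 1690 bases in the overlapping ones.

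**Figure D2:**
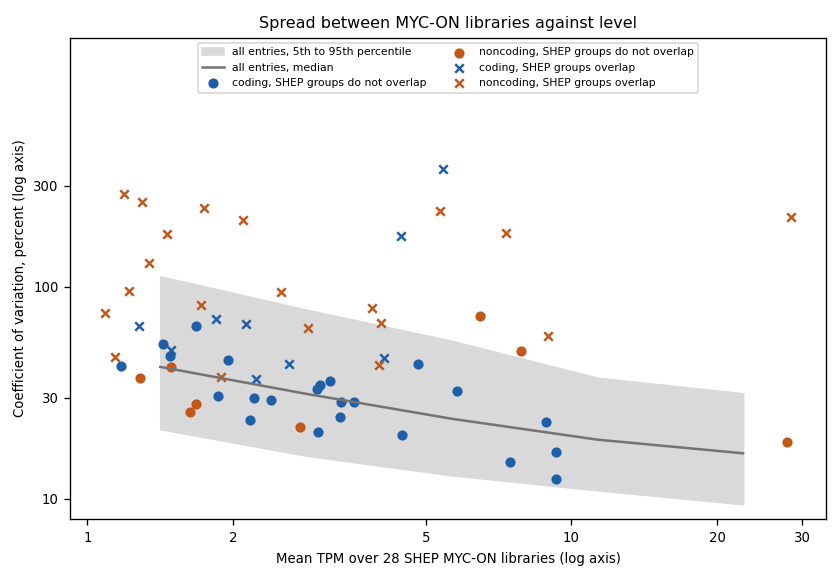
Coefficient of variation over the 28 SHEP MYC-ON libraries (percent, log axis) against mean TPM (log axis) for the 60 members, by coding type and by overlap of the SHEP groups, with the median and the 5th to 95th percentile of all entries in bins of level. Most circles (no overlap) lie near the median line, and several crosses (overlap) lie above the band, up to 360% for GABBR2.

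The highest ratio of the set belonged to an intermittent entry. AC015674.1, a lncRNA of 267 bases opposite KPNB1 (chr17:47682417-47682683), was listed at 0 in all 28 MYC-OFF libraries and in 21 of 28 MYC-ON libraries. Its mean of 28.5 ± 61.0 TPM (SD, n = 28) came from the 6 libraries of series 2 between CT52 and CT72, which ran from 36.6 to 214 TPM, and from 1 library of series 1 at 32.2 TPM. Those 6 libraries make up 21.4% of the 28 and held 96.0% of its MYC-ON sum. Without them it no longer met the level part of the rule.

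More than 50% of the MYC-ON sum of 6 members lay in these same libraries, and 5 of these members were noncoding. They were AC015674.1, AC009133.2 (99.0%), AC025259.1 (91.0%), AC020909.3 (84.6%), FOXD1-AS1 (76.3%) and AL049569.3 (76.2%), the last annotated as protein-coding. AC009133.2 lies opposite MAZ, AC025259.1 opposite ATG101, AC020909.3 opposite EMC10 and FOXD1-AS1 opposite FOXD1, all of them genes at more than 20 TPM in SHEP. AC009133.2 had values from 15.2 to 37.4 TPM in 5 of the 6 libraries and at most 0.785 TPM in the other 22 MYC-ON libraries. AC025259.1 had 20.8 to 38.1 TPM in all 6 and at most 9.30 TPM elsewhere in MYC-ON. The summed TPM of all 28 noncoding members was 172 to 451 in the 6 libraries and 47.3 to 124 in the other 22, with no overlap. The 5 noncoding members above met the rule through the same 6 libraries, so this gap follows in part from how members were chosen. The share of TPM on protein-coding genes was 94.7% to 96.3% in the 6 and 95.9% to 97.0% in the others, and 22552 to 25484 entries were above 0 in the 6 against 21783 to 24203. The part of these library differences in the members' levels was not tested.

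GABBR2 was the extreme case of single libraries. It measured 46.8 TPM at CT40 and 94.4 TPM at CT76 of series 2 in MYC-ON, and at most 1.08 TPM in the other 26 MYC-ON libraries, whose mean of 0.405 ± 0.299 TPM (SD) compares with 0.181 ± 0.203 TPM in the 28 of MYC-OFF. AL035252.4, AC096720.1 and Metazoa_SRP (ENSG00000277578, 1 of several entries with that symbol) were above 0 in 4, 5 and 8 of 28 MYC-ON libraries. Across the set, 16 members were listed at 0 in at least 1 MYC-ON library and 14 reached 1 TPM in fewer than 14 of the 28. At the steady end, 23 members were at 1 TPM or more in all 28.

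**Figure D3:**
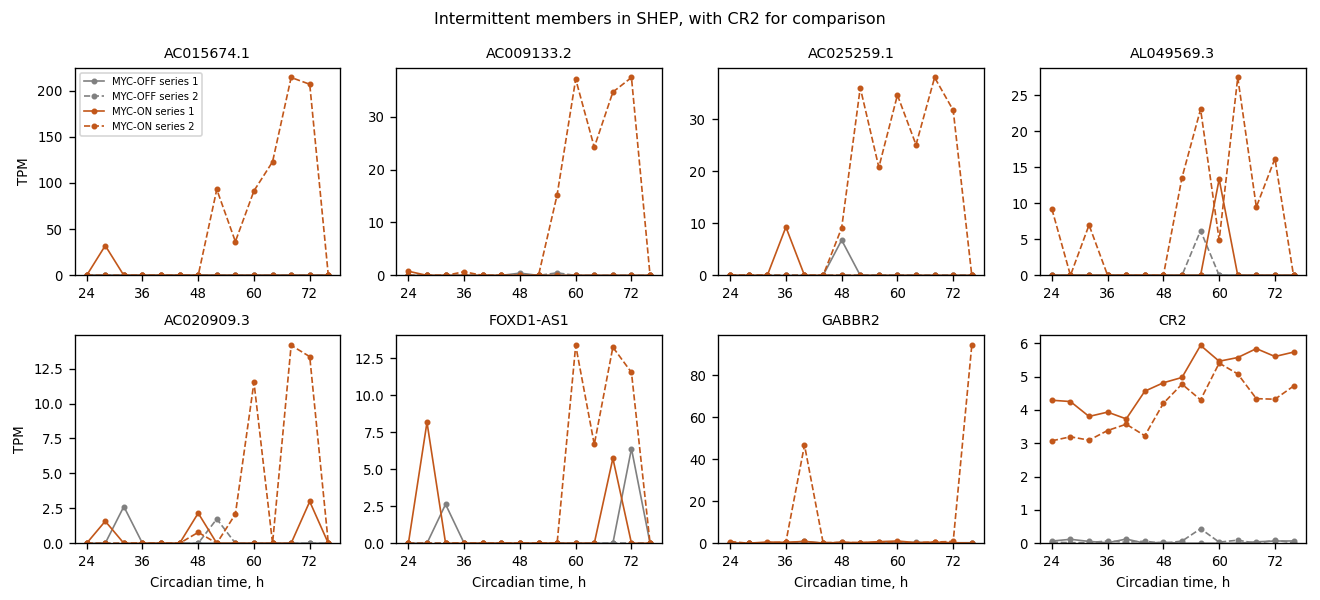
TPM against circadian time (h) in SHEP for the 6 members with most of their MYC-ON sum in series 2 from CT52 to CT72, for GABBR2 and, for comparison, for the steady member CR2, with each series drawn as a line. The first 6 peak between CT52 and CT72 of MYC-ON series 2, GABBR2 has 2 isolated points of 46.8 and 94.4 TPM, and CR2 stays above 3 TPM throughout MYC-ON.

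Membership moved with the choice of libraries. Without the 6 libraries 50 of the 60 stayed members, and 5 entries (AC015674.1, AC009133.2, AC025259.1, AC020909.3 and FOXD1-AS1) no longer met the levels at all. With medians in place of means 39 stayed, and 14 no longer met the levels. With series 2 alone 39 stayed and with series 1 alone 42. The members just inside the limit of 60 were COL17A1, AC025678.3 and FAM27E3 with log2 ratios of 2.27, 2.26 and 2.25, and the entries just outside were AC061999.1, RNU2-7P and AL353150.1 with 2.25, 2.25 and 2.23.

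Many noncoding members share their place with an expressed gene. In all, 25 members overlapped a gene at 5 TPM or more in SHEP, 17 of them among the overlapping-group members and 8 among the separated ones. ALMS1-IT1 and AP000577.2 lie on the same strand within ALMS1 and PPME1, which had MYC-ON means of 8.39 ± 2.31 and 233 ± 60.4 TPM. AC008738.7 lies within LRP3 on its strand, so these 2 members are not independent, and AC025678.3 overlaps GOLGA8A (39.1 ± 12.4 TPM in MYC-ON). BMP6 overlaps TXNDC5 on the other strand, at 335 TPM in MYC-OFF and 487 ± 50.8 TPM in MYC-ON. The sources used here do not say that strand was kept in quantification, so reads of such pairs cannot be told apart with certainty. SLC7A5P1 is a pseudogene copy of SLC7A5, and its level is uncertain because reads of SLC7A5 may be assigned to it by shared sequence. How far this occurred was not tested.

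The course over time in MYC-ON was fitted as well, since the rule used the MYC-ON means but not their order in time. The same libraries chose the members, so an entry high in the late ones could enter through them. Most other entries were already expressed in MYC-OFF, so the shares of all entries are given as a description only. With limma on log2(TPM + 1) over the 28 MYC-ON libraries, 35 of 60 members rose with CT, against 16.5% of the 14261 entries tested, and 1 fell, against 29.8%. The median slope of the members was 0.35 on the log2 scale per 24 h and that of all entries tested -0.05. With TPM rescaled between libraries the same counts were 37 and 1 of the members, 21.9% and 22.7% of all entries. Without the 6 late libraries 33 members rose and 1 fell.

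The steepest rises were in noncoding members and in CYB5R2. AC003092.1 (chr7:94022833-94066661) averaged 3.60 TPM from CT24 to CT36 and 13.2 TPM from CT64 to CT76 in series 1, and 1.86 and 16.2 TPM in series 2, a slope of 1.20 ± 0.11 (SE, log2 per 24 h, limma adjusted p = 6.5e-10). LINC01164 went from 3.21 to 16.3 TPM in series 1 and from 1.91 to 6.69 TPM in series 2 (slope 1.04 ± 0.11, adjusted p = 3.6e-09). ALMS1-IT1 went from 0.822 to 4.81 TPM and from 1.54 to 5.73 TPM (slope 0.92 ± 0.08, adjusted p = 1.1e-10). In each of these the late means of both series lay above both early means. AC008738.7 and CYB5R2 had slopes of 1.13 ± 0.23 (adjusted p = 0.00015) and 0.85 ± 0.09 (adjusted p = 3.1e-09).

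Among protein-coding members 22 of 32 rose, beside 35 of all 60 members and 16.5% of all entries tested. CCND2 averaged 1.07 and then 3.12 TPM in series 1 and 0.898 and then 2.92 TPM in series 2 (slope 0.58 ± 0.05, adjusted p = 3.9e-11). LPL, HES1, PRRX1 and GALNT18 rose with slopes of 0.70, 0.56, 0.53 and 0.51 (SE 0.07, 0.08, 0.09 and 0.05). By role, 4 of 5 transcriptional regulators, 4 of 5 enzymes and transporters, 4 of 7 signalling genes and 4 of 7 ligand, receptor and surface genes rose. These groups are small and were assigned after the members were seen, so no difference between roles is read from them. IGSF9, at -0.03 ± 0.05, did not pass, with early means of 8.65 and 9.16 TPM and late means of 8.72 and 7.91 TPM. CITED1, at 0.04 ± 0.09, also did not pass. The falling entry was SLC7A5P1 (-0.61 ± 0.20, adjusted p = 0.0096), whose late means of 0.859 and 1.08 TPM followed early means of 2.54 and 3.20 TPM.

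**Figure D4:**
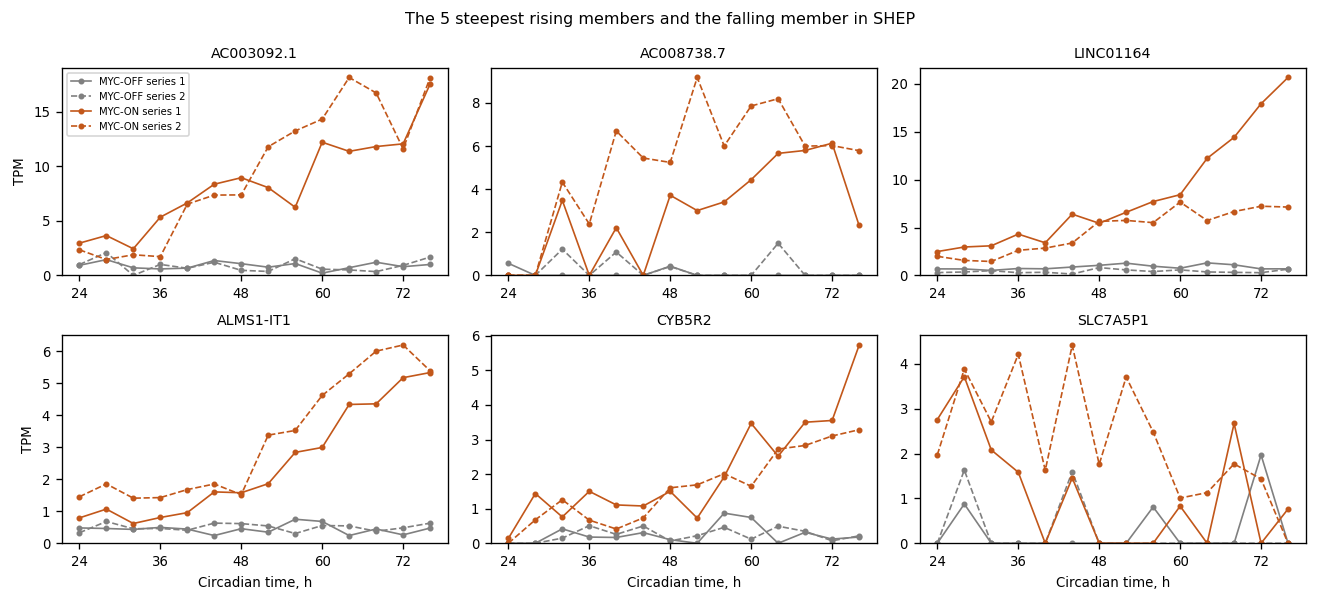
TPM against circadian time (h) in SHEP for the 5 members with the steepest rise in MYC-ON and for SLC7A5P1, the member that fell, with MYC-OFF in grey and MYC-ON in orange and each series as a line. AC003092.1 reaches 13.2 and 16.2 TPM on average from CT64 to CT76 in the 2 series while its MYC-OFF lines stay low.

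The rise was not seen to the same extent in MYC-OFF, where the levels are near the bottom of the scale. The late mean was above the early mean in both series for 43 members in MYC-ON and for 10 in MYC-OFF. Over all 14261 entries these shares were 27.6% in MYC-ON and 27.5% in MYC-OFF. Without the 6 late libraries 40 members were later higher in both MYC-ON series, against 28.1% of entries. Of the 35 rising members, 7 were also later higher in both MYC-OFF series. The difference of the slopes between conditions was not tested. Since 4OHT was given before dexamethasone, time after 4OHT, time after dexamethasone and time in culture cannot be told apart.

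The 2 SHEP series differed in 14 members, a share near that of all entries tested. Series 2 was higher than series 1 in MYC-ON in 9 members (10.7% of all entries tested) and lower in 5 (12.3%), by limma with CT as a factor. The largest called differences were AC025259.1 at 2.13 ± 0.69, AL049569.3 at 1.85 ± 0.52 and AC009133.2 at 1.73 ± 0.59 on the log2 scale (SE, adjusted p = 0.035, 0.019 and 0.043). With series 1 alone none of these met the levels of the rule, so they became members through series 2. Nothing is read from their p-values, since the same values chose them. Without the 6 libraries 2 members were higher and 5 lower, against 3.32% and 3.90% of all entries, and AC025259.1 and AC009133.2 were at -0.0028 and -0.010. Among those lower in series 2 were C4BPB at -0.60 ± 0.08, LINC01164 at -0.60 ± 0.11 and COL17A1 at -0.41 ± 0.06 (adjusted p = 0.00016, 0.0013 and 0.00017).

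No member was called rhythmic in MYC-ON. A 24 h cosinor fitted with limma called 0 of 60 members and 3 of 14261 entries (0.0210%), and 5 members had an unadjusted p below 0.05. The cosinor called 0 members under each of the alternatives run as well, and without the 6 late libraries 9 members had an unadjusted p below 0.05.

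To see how the members behaved in a second line, they were followed in SKNAS, which the rule did not use. Here the members were not one state, because 22 of 60 already had a MYC-OFF mean of at least 1 TPM. Of all 46118 entries below 1 TPM in SKNAS MYC-OFF, 0.755% had a MYC-ON mean of at least 1 TPM. That share counts entries at 0 in every SKNAS library, since only 32475 of the 60237 entries were above 0 in any. It is thus not a like background for the members. Of the 38 members below 1 TPM in MYC-OFF, 12 had a MYC-ON mean of at least 1 TPM. These 12 were POU3F1, TSHR, LPL, CAMKV, SLC19A3, CITED1, SOX7, GALNT18, AL161733.1, AC022201.2, AC008641.1 and ALMS1-IT1. The other 26 stayed below 1 TPM in both conditions, and LINC01164 and AC096720.1 were listed at 0 in all 27 libraries. CR2 and GABBR2 were also nearly absent, with a highest SKNAS value of 0.0166 and 0.0344 TPM.

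A mean of at least 1 TPM over the 27 SKNAS libraries was needed for the test, and 30 members passed it. With limma, CT as a factor, 18 were higher in MYC-ON (13.7% of the 13886 entries tested) and 3 were lower (34.4%). The median change of the 30 was 1.26 on the log2 scale and that of all entries tested was -0.29. In 9 of the 18 the MYC-OFF mean was below 1 TPM, so these passed the filter only through MYC-ON and had to differ. Of the 21 tested members with a MYC-OFF mean of at least 1 TPM, 9 were higher, 3 lower and 9 not called, against 13.1% higher and 34.8% lower among all 13697 entries of that kind. With TPM rescaled between libraries the member counts were again 18 and 3, while all entries went to 27.9% higher and 23.4% lower.

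Of the 5 transcriptional regulators, HES1 and PRRX1 were expressed in SKNAS MYC-OFF, and of these HES1 was called higher and PRRX1 was not called. POU3F1, SOX7 and CITED1 are among the members that had to differ to pass the filter. Their values are a description, and nothing is read from their calls. POU3F1 ran from 0 through 0.0405 to 0.306 TPM over the 14 MYC-OFF libraries and from 11.7 through 24.8 to 43.7 TPM over the 13 MYC-ON libraries, a change of 4.62 ± 0.18 (SE, log2, adjusted p = 1.9e-10). HES1 was already expressed, from 11.7 through 19.5 to 24.4 TPM, and ran from 35.5 through 78.9 to 96.0 TPM in MYC-ON (1.80 ± 0.13, adjusted p = 7.1e-08). SOX7 had means of 0.324 ± 0.145 and 2.20 ± 1.27 TPM (SD) and a change of 1.17 ± 0.17 (adjusted p = 6.3e-05). The libraries of the 2 conditions did not overlap in any of these genes. CITED1 rose by 1.06 ± 0.20 (adjusted p = 0.00048) and was higher in 12 of 13 pairs of the same CT. PRRX1 was abundant in both conditions, at 67.7 ± 31.9 and 55.1 ± 39.1 TPM, and did not pass (-0.36 ± 0.29, adjusted p = 0.31).

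Other members were expressed in SKNAS before activation and rose further. TMEM52, a transmembrane protein, ran from 1.68 through 3.11 to 5.06 TPM in MYC-OFF and from 12.6 through 20.2 to 31.3 TPM in MYC-ON (2.39 ± 0.15, adjusted p = 1.1e-08). C4orf47 had means of 3.06 ± 1.60 and 16.0 ± 4.20 TPM (2.07 ± 0.17, adjusted p = 1.8e-07). CGREF1 went from 11.6 ± 3.82 to 37.5 ± 13.4 TPM (1.65 ± 0.18, adjusted p = 3.4e-06). IGSF9 went from 8.89 ± 1.78 to 15.7 ± 2.40 TPM (0.78 ± 0.11, adjusted p = 2.6e-05), a level above its SHEP one in both conditions. The lncRNA EMSLR went from 2.00 ± 0.328 to 9.03 ± 1.63 TPM (1.75 ± 0.10, adjusted p = 1.0e-08).

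Of the enzymes and transporters GALNT18 and SLC19A3 were higher, and both passed the filter only through MYC-ON. GALNT18 ran from 0 through 0.0585 to 0.123 TPM and from 1.82 through 5.48 to 11.1 TPM, a change of 2.64 ± 0.16 (adjusted p = 1.2e-08). SLC19A3 ran from 0 through 0.161 to 0.475 TPM and from 1.08 through 2.15 to 3.62 TPM (1.39 ± 0.13, adjusted p = 6.4e-07). Among the 21 tested members with a MYC-OFF mean of at least 1 TPM, all MYC-ON libraries lay above all MYC-OFF libraries in 7, against 2.10% of the 13697 entries tested with such a mean and 2.32% of all entries tested. All lay below in 0 of the 30 tested members, against 2.09% of entries tested. AL035252.4, an unclassified entry opposite ENTPD6, rose by 2.92 ± 0.76 (adjusted p = 0.0058) but overlapped, from 0 to 52.5 TPM in MYC-OFF and from 0 to 140 TPM in MYC-ON, and its change was 1.04 with the library median as a covariate.

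**Figure D5:**
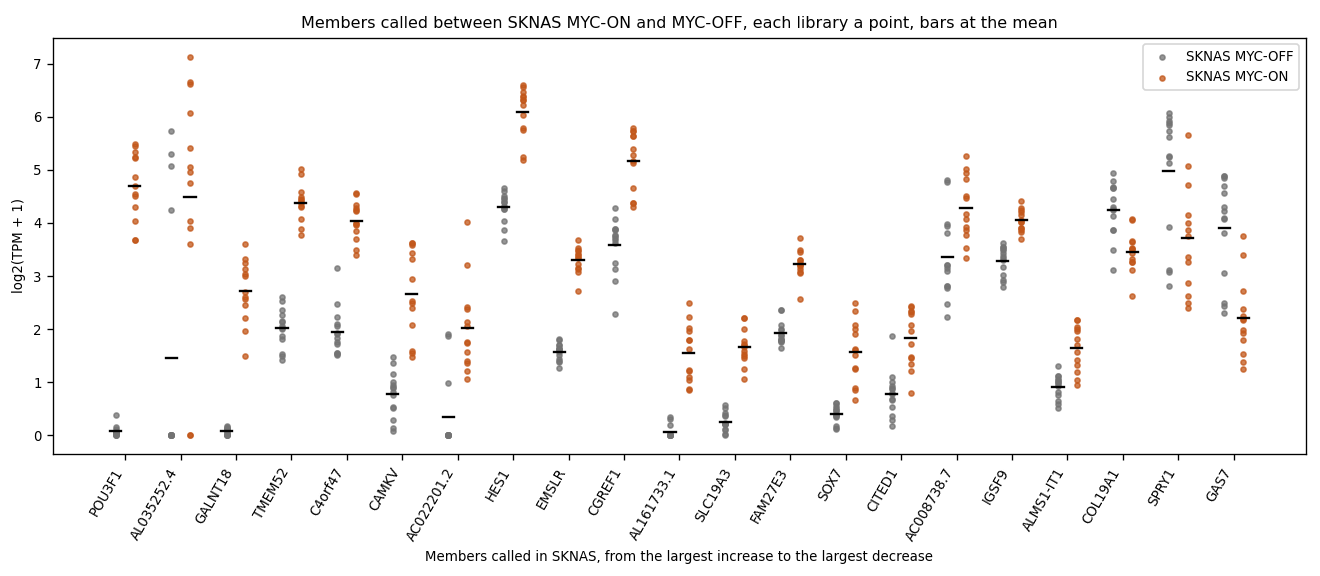
log2(TPM + 1) of the 21 members called in SKNAS, with each library a point (14 MYC-OFF in grey, 13 MYC-ON in orange) and a bar at the mean, ordered from the largest increase to the largest decrease. POU3F1 and GALNT18 rise from near 0, AL035252.4 is scattered in both conditions, and COL19A1, SPRY1 and GAS7 at the right are lower in MYC-ON.

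The 3 members that fell in SKNAS were among those expressed there from the start. GAS7, a growth-arrest gene linked to neurite outgrowth, ran from 3.93 through 16.8 to 28.5 TPM in MYC-OFF and from 1.39 through 3.48 to 12.6 TPM in MYC-ON (-1.67 ± 0.29, adjusted p = 0.00023) and was lower in 12 of 13 pairs. SPRY1 had means of 39.1 ± 22.1 and 15.7 ± 13.2 TPM (-1.19 ± 0.34, adjusted p = 0.0097). COL19A1 had means of 19.0 ± 6.40 and 10.4 ± 2.93 TPM (-0.78 ± 0.16, adjusted p = 0.00077). In SHEP the same genes went from MYC-OFF means of 0.0659, 0.280 and 0.0675 TPM to 2.21, 3.35 and 1.28 TPM. The library medians, which reached 3.8 in fewer MYC-ON than MYC-OFF libraries of SKNAS, moved with these falls. With the library median as a covariate GAS7, SPRY1 and COL19A1 were at -0.99, -0.33 and -0.54 and still called. In the 13 libraries of a median of at least 3.8, fitted without CT, they were at -1.14, -0.51 and -0.53, and the call of SPRY1 was lost. With TPM rescaled between libraries COL19A1 was at -0.43. The difference between the lines was not tested.

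The 30 members left out of the SKNAS test had MYC-OFF means of at most 1.05 TPM and MYC-ON means of at most 1.50 TPM. Fitted without the filter, 28 of them gave a value, 9 higher, 3 lower and 16 not called, against 6.17% higher and 15.6% lower of all 32475 entries fitted that way. TSHR went from 0.130 ± 0.262 to 1.39 ± 1.03 TPM (1.01 ± 0.19, adjusted p = 0.0019) and LPL from 0.310 ± 0.186 to 1.50 ± 0.840 TPM (0.88 ± 0.13, adjusted p = 0.00022). CCND2 was listed at 0 in all 14 MYC-OFF libraries and had 0.0384 to 0.623 TPM in MYC-ON, every library above 0. The entry over it on the same strand, ENSG00000285901, averaged 0 TPM in MYC-OFF and 1.29 TPM in MYC-ON. The level of CCND2 alone is thus uncertain in SKNAS too. FAM222A-AS1 went the other way, from 1.05 ± 0.691 to 0.0348 ± 0.0887 TPM (-0.89 ± 0.14, adjusted p = 0.00042), lower in 12 of 13 pairs. FAM222A itself averaged 62.2 TPM in MYC-OFF and 16.0 TPM in MYC-ON in this line.

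The 6 members with most of their SHEP signal in the late libraries were all tested in SKNAS, and 0 were called by limma. Of the 15 tested members that overlapped between the SHEP conditions, 6 were higher, 1 was lower and 8 were not called. Of the 15 tested members that were separated there, 12 were higher, 2 lower and 1 not called. Among all entries tested 13.7% were higher and 34.4% lower. Over both groups, 9 of the higher members passed the filter only through MYC-ON and had to be higher. They were POU3F1, SLC19A3, CAMKV, CITED1, SOX7 and GALNT18 among the separated members and ALMS1-IT1, AC022201.2 and AL161733.1 among the overlapping ones. Nothing is thus read from the counts of the groups, against each other or against all entries. AC015674.1 was listed at 0 in 9 of the 14 libraries without and in 4 of the 13 with activation, and reached 201 and 198 TPM (1.76 ± 1.15, adjusted p = 0.21). AC025259.1 had means of 18.9 ± 14.5 and 44.1 ± 22.2 TPM (1.36 ± 0.69, adjusted p = 0.11). Both were thus present in SKNAS without N-MYC activation, at levels not seen in SHEP MYC-OFF. Over the noncoding members together the summed TPM ran from 21.8 to 358 in MYC-OFF and from 75.2 to 380 in MYC-ON.

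The members were also looked up in lists of genes with known roles, which were chosen with earlier results of these data known. No expected number of members was computed for these lists, so nothing is read from how many they held. PRRX1 was in a list of 16 mesenchymal neuroblastoma genes and CCND2 in a list of 23 early MYC and proliferation factors, and the other 12 lists held none. Of the 45973 entries below 1 TPM in SHEP MYC-OFF, 1.20% had a MYC-ON mean of at least 1 TPM, as did 2.35% of the 23472 of them above 0 somewhere in SHEP. In the adrenergic list 0 of 16 silent genes did, in the neuronal list 0 of 19 and in the germline and cancer-testis list 0 of 20. In the list of estrogen receptor targets, which bears on 4OHT as a ligand of that receptor, 1 of 8 did, MYB at 1.04 ± 0.315 TPM against 0.391 ± 0.265 TPM. DCT, a pigment enzyme, and HOXC5 were the ones in the melanocyte and glia list (1 of 10) and the HOX list (1 of 11), at MYC-ON means of 1.28 and 1.89 TPM.

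None of the silent genes in the other lists reached a MYC-ON mean of 1 TPM, with 10 silent in the epithelial list, 15 in the immune, 9 in the endothelial, 19 in the muscle, 16 in the liver and gut and 32 in the ion channel list. In SKNAS 13 of 14 tested adrenergic genes were lower in MYC-ON and 1 higher, 9 of 11 neuronal genes were lower and 0 higher, and 5 of 12 mesenchymal genes were lower and 1 higher. These counts read against 34.4% lower and 13.7% higher among all entries tested, or 23.4% and 27.9% with TPM rescaled between libraries. Of the germline list 4 of 10 were lower and 1 higher, of the estrogen receptor targets 4 of 10 were lower and 3 higher, and of the early MYC and proliferation list 4 of 20 were lower and 7 higher. That last list was the only one of the 14 with more genes higher than lower in SKNAS. The epithelial, immune, endothelial, muscle, melanocyte and glia, and liver and gut lists had 5 of 7, 2 of 4, 1 of 1, 4 of 4, 3 of 3 and 1 of 2 lower, with 1 higher among the immune genes. Of the channel and HOX lists 5 of 9 each were lower, with 2 and 1 higher.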

How the data were processed

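The libraries were poly-A enriched and sequenced as pairs. The authors quantified reads with Salmon 1.3.0 against Gencode 35 and summed transcripts to genes (symbols from Ensembl 101). The unit of the deposited table is TPM, so each library sums to 1000000, its depth is unknown and no counting interval can be given. The study's count model was replaced by limma 3.58.1 (R 4.3.3) on log2(TPM + 1), which understates changes of low genes. Entries with a mean of at least 1 TPM over the libraries fitted were tested, all together, and called where the Benjamini-Hochberg adjusted p did not exceed 0.05 and the log2 change reached 0.15 either way (per 24 h for slopes). SKNAS and the series comparison had CT as a factor. The scripts were tested on simulated data. Coordinates and gene types came from Gencode 44 on GRCh38.

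Members and lists were chosen with earlier results of these data known, and roles were assigned after the members were seen. All members could be named; fuller values went to the highest ratios and levels, the largest called changes, the members at the rank limit, those switched on in SKNAS and those in a list. Alternatives changed the pseudocount, filter, scaling, libraries, and the series as a replicate block. The paper's other samples were not analysed here.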

Additional observations from a re-analysis of the deposited data

How the results depend on the processing

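The rule kept 45 to 58 of the 60 members under the other pseudocounts, rescaling and the 2 choices made after seeing the data, 39 with medians, and 39 to 42 with 1 series. In SKNAS the 18 higher and 3 lower members were 18 and 3 with a pseudocount of 0.1, rescaling, the library median as covariate or no CT term. Without a filter 27 were higher and 6 lower, and with a filter of 0.1 TPM 26 and 6. With only the 13 libraries of a median of at least 3.8, 4 were higher and 0 lower, with 1 residual degree of freedom. The same libraries without the CT term, added after seeing the data, gave 16 and 2, and the calls of AC008738.7, AL035252.4 and SPRY1 were lost. CITED1 was at 0.53 there, still called. AC008738.7 was also lost with the library median as covariate. In the slope, 36 members rose and 2 fell with series as a replicate block, which the series share by CT only, and 2 fell with a pseudocount of 0.1. With 1 series left out 26 to 35 rose and 0 to 2 fell. Between series, 4 members were higher without the filter and 2 without the 6 late libraries, and AC025259.1 and AC009133.2 reversed there to -0.0028 and -0.010. The cause of these shifts was not tested. Depth is unknown, so levels near 0 cannot be told from absence.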
